A study of Sus scrofa with 24 samples.

Results

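Muscle of finished pigs at 188 days post natum (dpn) was set against muscle of newborn piglets at 1 dpn, 6 arrays a stage out of the 24 arrays and 4 stages of the series. The members are all arrays labelled with these stages, and the measurements are the signals of 23935 probe sets on the Affymetrix Porcine Genome Array (24118 less 183 controls). The 188 dpn animals, the 1 dpn animals and the animals of the other stages (94 days post conception, dpc, and 28 dpn) were offspring of German Landrace gilts that all ate the high protein [HP] diet through gestation. Offspring of 3 gilts were taken per stage. No other diet was compared, so the values describe age within offspring of that diet. The labels give no mother, sex or array batch for an animal: animals that shared a mother were not independent, and the p-values below are then too small by an unknown amount.

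The sample labels name liver as the tissue, whereas the series title names muscle. Of 10 skeletal muscle markers 7 were measured, and their summed signal was 328499 to 469599 at 188 dpn, against 278234 to 366323 at 1 dpn, and creatine kinase CKM read 51112 to 71736 (median 66719) in the finished and 53813 to 73817 (median 63416) in the newborn animals. Every array therefore held strong muscle signal. The 7 measured of 8 liver markers summed to 1110 to 126932 at 188 dpn, against 2504 to 22633 at 1 dpn, and the brightest albumin (ALB) probe set read 56933, 45919 and 12421 in 188 dpn animals 1, 2 and 3, against 123, 80.1 and 281 in animals 4, 5 and 6. A second set of arrays stood apart at 1 dpn by the 5′ to 3′ ratio of a pair of GAPDH control probe sets, a measure of how complete the RNA was. The ratio was 0.111, 0.296 and 0.254 in animals 1, 2 and 3 and 0.841 to 1.14 in animals 4, 5 and 6. Another GAPDH control pair set them apart less, at 0.424, 0.581 and 0.616 against 0.907 to 0.996, with 0.624 to 0.725 at 188 dpn. An EF1A control pair gave 0.135, 0.105 and 0.0963 against 0.670 to 0.703. Both sets of arrays are referred to below as the doubted arrays. Each result was computed with all arrays, without the 3 low-ratio arrays of 1 dpn, without the 3 ALB-high arrays of 188 dpn, and without both, and a change is said to hold when it was called in the same direction in all 4 fits.

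Skeletal muscle fibres are built before birth, and after birth they grow by adding protein and nuclei rather than by new fibres. During this growth the fibre replaces developmental isoforms of contractile proteins with adult ones, builds up the membrane system that releases calcium, and in fast muscle comes to rely on stored glycogen and creatine phosphate. Newborn muscle is rich in dividing precursor cells, connective tissue that is still being laid down, and ribosomes. Milk, the food of the newborn, is rich in fat, while the finished pig eats cereal feed rich in starch.

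A limma model on log2 signals with Benjamini-Hochberg adjustment over all probe sets called 8363 of them changed (34.9%) at an adjusted p of at most 0.05: 3378 were higher at 188 dpn (14.1%) and 4985 lower (20.8%). Of these, 1780 (7.44%) and 2457 (10.3%) held without the doubted arrays (50.7% of the calls). The fits took the spread from all 4 stages, and when only the 12 arrays of the 2 stages were fitted, 458 higher and 367 lower probe sets held. A difference of at least 2-fold was found for 2211 (9.24%) higher and 3151 (13.2%) lower probe sets. The 6 arrays of one stage lay entirely above the 6 of the other in 1735 (7.25%) higher and 2274 (9.5%) lower probe sets. The split between directions depended on scaling: 40.4% of the calls were higher in the deposited signals, 48.6% after quantile normalization and 54.8% after each array was centred on its median. The median difference of all probe sets was correspondingly -0.20, -0.04 and 0.01 on the log2 scale, so that differences below are best read relative to it.

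Taking the brightest probe set for each of the 6765 genes named by 1 symbol, 3032 changed (44.8%): 1174 rose (17.4%), 1858 fell (27.5%), and the median difference over all genes was -0.17. By at least 2-fold, 637 genes rose (9.42%) and 1028 fell (15.2%). Among all these calls 641 rises (9.48%) and 1004 falls (14.8%) held, and 612 (9.05%) higher and 965 (14.3%) lower genes had no overlap between the stages. These shares are the background for every gene group below. Group medians are from the fit with all arrays unless stated. Differences are log2 values, 188 dpn minus 1 dpn, with the standard error (SE) of the fit, and paired levels are geometric means of 6 arrays a stage. "Rose" and "fell" mean an adjusted p of at most 0.05. The signal of empty control probes reached 74.7, and where a stage lay under that level a fold is given only as a lower bound.

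**Figure D1:**
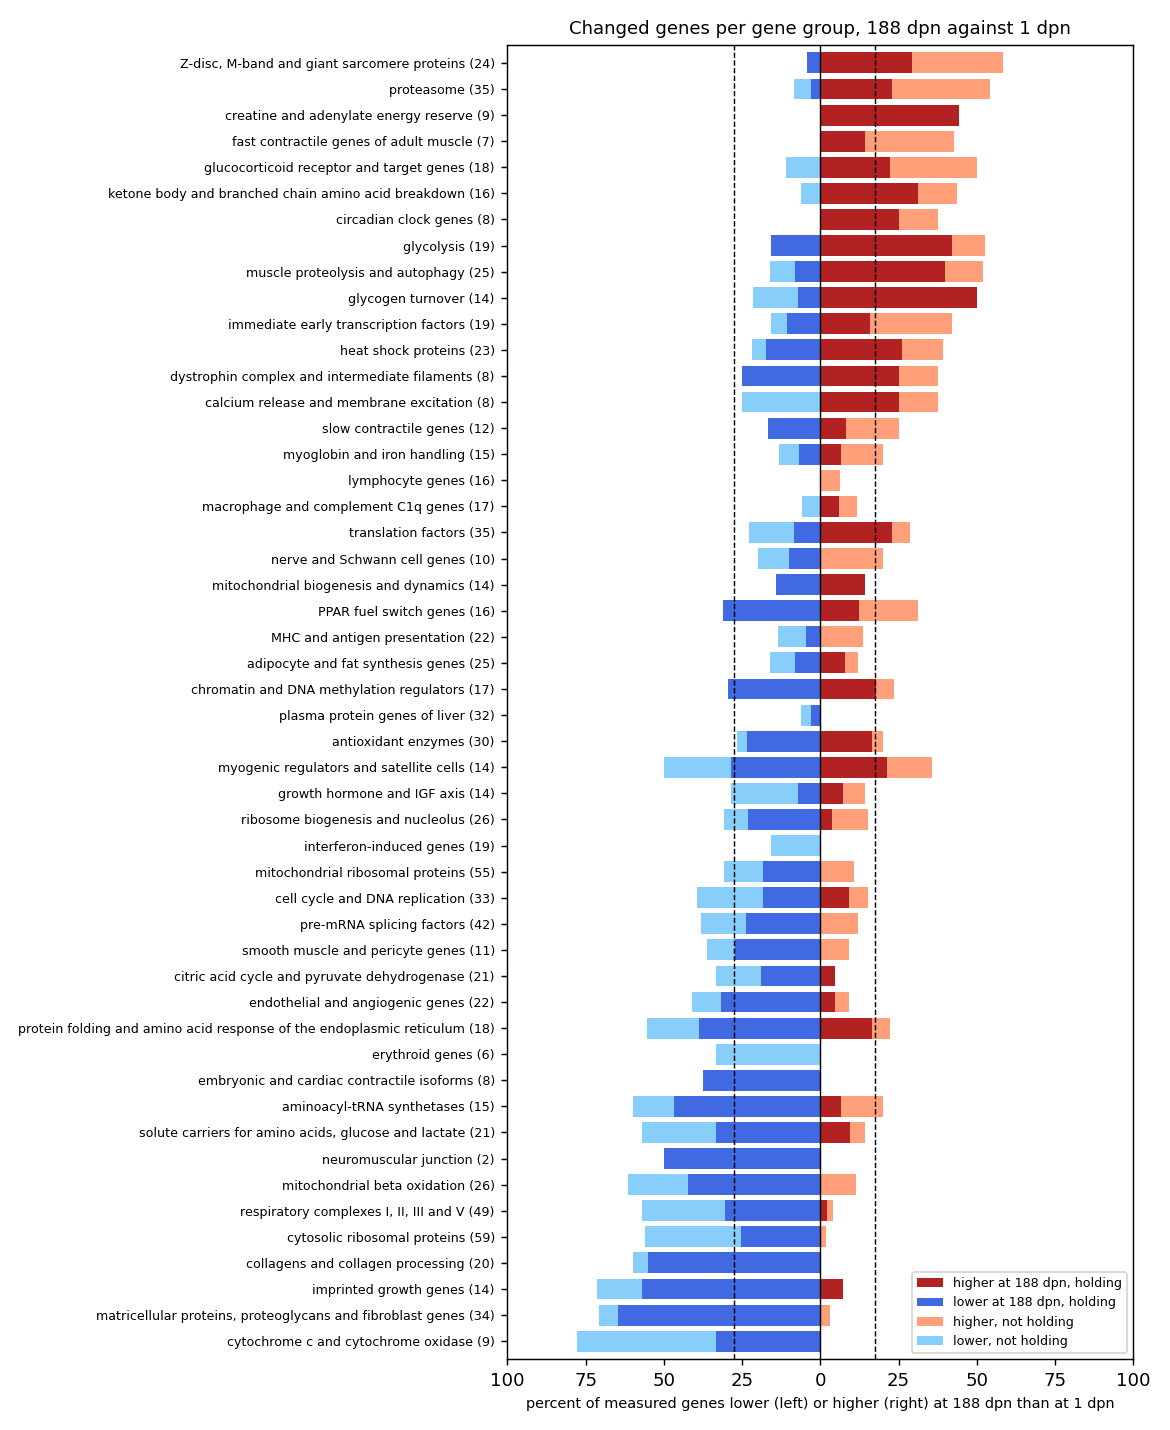
Percent of the measured genes of each of 50 gene groups that were higher (right of 0) or lower (left of 0) at 188 dpn than at 1 dpn at an adjusted p of at most 0.05; the dark part of a bar held without the doubted arrays and the number of measured genes stands beside each name. Dashed lines mark the shares over all 6765 genes, 17.4% higher and 27.5% lower; collagens, matricellular proteins and imprinted genes lie far left, and sarcomere, proteasome and glycolysis genes right.

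Among the 12 genes that rose most, 4 belong to the working machinery of the muscle fibre. CAPN3, the muscle calpain, a protease anchored in the sarcomere, measured 5785 to 7889 (median 7576) at 188 dpn and 42.0 to 1624 (median 519.6) at 1 dpn, a difference of 4.30 ± 0.56 (adjusted p = 3e-06). SYNM, the intermediate filament protein synemin, measured 9797 to 14735 (median 13284) at 188 dpn and 318 to 1649 (median 778) at 1 dpn (4.09 ± 0.30, adjusted p = 1.21e-09). CMYA5 (myospryn), a large protein of the sarcomere's edge, measured 15339.7 to 19728 (median 19189.7) at 188 dpn and 1017 to 2106 (median 1518) at 1 dpn (3.58 ± 0.21, adjusted p = 9.05e-11). In all of these the lowest 188 dpn array lay above the highest 1 dpn array, as the choice of the genes required. GAMT, which makes creatine in its last step, measured 7752 to 10213 (median 9101) at 188 dpn and 131 to 859.6 (median 643) at 1 dpn (4.20 ± 0.32, adjusted p = 1.82e-09).

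Metabolic and signalling genes made up most of the other large rises. MSS51, a mitochondrial protein enriched in skeletal muscle, measured 7401 to 20756 (median 12725) at 188 dpn and 136 to 321 (median 185) at 1 dpn, a difference of 5.95 ± 0.26 (adjusted p = 1.06e-12). ALDH2, the mitochondrial aldehyde dehydrogenase, measured 25223 to 38995 (median 29543) at 188 dpn and 1071 to 2786 (median 1790.1) at 1 dpn (4.10 ± 0.22, adjusted p = 1.61e-11). As the choice of the genes required, no 1 dpn array of either gene reached the 188 dpn range. The growth factor gene EGF measured 5782 to 8629.7 (median 7008) at 188 dpn and 180.03 to 1397 (median 341) at 1 dpn (4.26 ± 0.37, adjusted p = 9.71e-09). FOS, an immediate early transcription factor, measured 4649.6 to 13829 (median 8311) at 188 dpn and 256 to 1348 (median 450.04) at 1 dpn (4.19 ± 0.60, adjusted p = 8.33e-06).

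Another 4 of the 12 lay under the background level at 1 dpn, so that their rises are lower bounds. CYP3A29, a pig cytochrome P450 of the 3A family, whose members are best known as drug and steroid oxidising enzymes of liver, measured 462 to 4030.2 (median 1667) at 188 dpn and 7.37 to 49.9 (median 13.8) at 1 dpn, at least 22.3-fold higher (adjusted p = 9.52e-06). GHR, the growth hormone receptor, measured 549 to 683 (median 627) at 188 dpn and 13.3 to 225 (median 48.1) at 1 dpn, at least 5.81-fold higher (adjusted p = 1.19e-05). TMEM140, a transmembrane protein, was at least 11.2-fold higher and the unnamed locus LOC100510904 at least 4.61-fold higher at 188 dpn. In 6 of the 12 (MSS51, CAPN3, GAMT, SYNM, LOC100510904 and GHR) the 3 low-ratio arrays were the 3 lowest of 1 dpn. CAPN3 read 42.0 to 207 in those arrays and 832 to 1624 in the other newborn arrays, and its difference without both doubted sets was 2.78 (adjusted p = 1.01e-06). GHR read 13.3 to 28.9 in the low-ratio arrays and 67.4 to 225 in the other newborn arrays, with a difference of 2.05 without both sets (adjusted p = 0.00123). The part of RNA quality in the size of these rises was not tested.

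**Figure D2:**
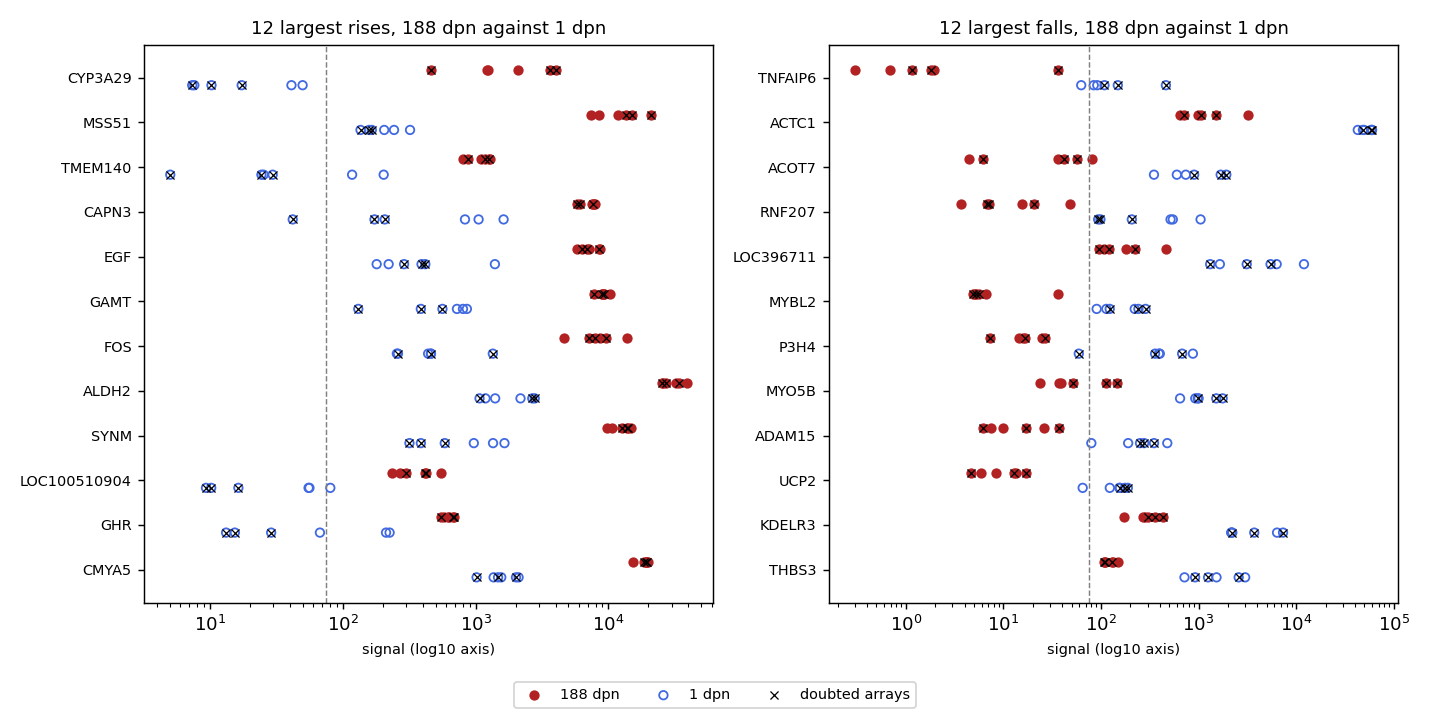
Signal per array (log10 axis) of the 12 genes with the largest rise (left panel) and the 12 with the largest fall (right panel) at 188 dpn against 1 dpn; filled circles are 188 dpn arrays, open circles 1 dpn arrays, crosses mark the doubted arrays of either stage, and the dashed line is the background level of 74.7. In none of the 24 genes do the 2 stages overlap, as the choice of the genes required.

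The largest fall with both stages above background was that of ACTC1, cardiac alpha actin, the actin of the heart and of developing skeletal muscle. It measured 641 to 3199.9 (median 1021) at 188 dpn and 42809.7 to 59987 (median 54111) at 1 dpn, a difference of -5.52 ± 0.29 (adjusted p = 1.61e-11). KDELR3, a receptor that returns proteins to the endoplasmic reticulum, measured 173 to 429 (median 292) at 188 dpn and 2161 to 7343 (median 2971) at 1 dpn (-3.59 ± 0.31, adjusted p = 9.42e-09). THBS3, a thrombospondin of the extracellular matrix, measured 109 to 151 (median 120.3) at 188 dpn and 718 to 3004 (median 1390.5) at 1 dpn (-3.58 ± 0.29, adjusted p = 3.47e-09). LOC396711, a locus with no gene name, differed by -4.48 ± 0.56 (adjusted p = 1.53e-06).

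For the other 8 of the 12 largest falls the 188 dpn mean lay under the background level. TNFAIP6, a hyaluronan-binding protein, measured 0.304 to 36.3 (median 1.48) at 188 dpn and 62.8 to 463 (median 100.2) at 1 dpn, at least 1.66-fold lower (adjusted p = 9.5e-06). ACOT7, an acyl-CoA thioesterase, measured 4.48 to 81.5 (median 39.1) at 188 dpn and 349 to 1926 (median 821) at 1 dpn, at least 11.6-fold lower. TNFAIP6 exceeded the background level in 0 of 6 finished and 5 of 6 newborn arrays, and ACOT7 in 1 of 6 finished and 6 of 6 newborn arrays. MYBL2, a transcription factor of dividing cells, was at least 2.20-fold lower, and P3H4, which takes part in collagen modification, at least 4.75-fold lower. The bounds were 3.85-fold for RNF207, a RING finger protein, 12.0-fold for the myosin MYO5B, 3.17-fold for the membrane protease ADAM15 and 1.83-fold for UCP2, a carrier of the inner mitochondrial membrane. Among these 12 falls the low-ratio arrays were the 3 highest newborn arrays for TNFAIP6, ACOT7 and UCP2 and the 3 lowest for RNF207. All 12 held, as the choice of the genes required.

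Contractile isoforms changed unevenly. Of 7 measured fast genes 3 rose and 0 fell (1 and 0 holding, median 0.15, with 0 falls also at an unadjusted p under 0.05 by limma), and of 12 slow genes 3 rose and 2 fell (1 and 2 holding, median 0.21). The slow rises numbered 7 after quantile normalization and 5 after median centring. The rise that held was that of MYH2, the myosin heavy chain of fast oxidative fibres, with 58084 to 80848 (median 74194) at 188 dpn and 1851 to 18637 (median 9983) at 1 dpn (3.23 ± 0.43, adjusted p = 3.15e-06). Every finished animal read above every newborn, and the mean was 69998 at 28 dpn and 7754 at 94 dpc. TNNT3, the fast troponin T, averaged 61848 and 34942 at 188 and 1 dpn (0.82 ± 0.22) and TPM1, an alpha tropomyosin, 71992 and 49429 (0.54 ± 0.17), and neither rise held; a second, dim TPM1 probe set was called lower. MYL1, a fast light chain and the brightest gene of the group, differed by 0.10 ± 0.12 (adjusted p = 0.583).

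Among slow genes, MYBPC1, a slow myosin binding protein, averaged 27847 against 10225 at 1 dpn (1.45 ± 0.34) without holding, and PLN (phospholamban), a brake on the calcium pump, 2008 against 781 (1.36 ± 0.28), which held. CASQ2, the cardiac and slow calsequestrin, lay under background at 188 dpn, at least 5.95-fold lower than its mean of 507 at 1 dpn (adjusted p = 1.81e-05). TPM3, the slow alpha tropomyosin, fell to 1026 at 188 dpn, against 2063 at 1 dpn (-1.01 ± 0.21). MYL2, the slow light chain and the brightest slow gene, differed by 0.06 ± 0.13 (adjusted p = 0.766). In the group of embryonic and cardiac isoforms 3 of 8 fell, all holding, 0 rose (0 also at an unadjusted p under 0.05 by limma), and the median was -0.23: ACTC1 as above, the smooth muscle actin ACTA2 at 5715 against 15122 (-1.40 ± 0.15) and the non-muscle myosin MYH9 at 1673 against 3845 (-1.20 ± 0.15, but adjusted p = 0.321 when its probe sets were averaged), 188 dpn means against those of 1 dpn. Without both doubted sets the median of this group was -1.01. ACTC1 averaged 33342 at 94 dpc and 29565 at 28 dpn beside the values above, so that its 188 dpn level lay far below those of all earlier stages.

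Genes for proteins that tie the sarcomere together had more rises than the background. Of 24 Z-disc, M-band and giant sarcomere genes 14 rose and 1 fell, 7 and 1 of them holding, with a median of 0.76 against -0.17 over all genes. PDLIM3, a Z-disc partner of alpha actinin, measured 28071 to 40328 (median 36387) at 188 dpn and 2704 to 16404 (median 6571) at 1 dpn (2.49 ± 0.29, adjusted p = 6.45e-07). TMOD4, which caps thin filaments in skeletal muscle, measured 27485 to 41951 (median 34637) at 188 dpn and 3441 to 16377 (median 6655) at 1 dpn (2.20 ± 0.27, adjusted p = 1.42e-06). Neither had a newborn array in the finished range. FHL3, a LIM domain protein, averaged 10919 against 2639 (2.05 ± 0.26), and XIRP2, an actin-binding repeat protein, 16845 against 4173 (2.01 ± 0.34), of which the second did not hold. The fall was that of ACTN2, an alpha actinin of the Z-disc (-0.40 ± 0.14, adjusted p = 0.0262), which median centring ended (adjusted p = 0.354), as did leaving out any of 5 single arrays (adjusted p up to 0.0692). FHL1, the brightest member, differed by -0.19 ± 0.13 (adjusted p = 0.281).

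Around the fibre membrane and its calcium store the directions were mixed. In the dystrophin complex and intermediate filament group 3 of 8 genes rose and 2 fell (2 and 2 holding, median 0.34). Beside SYNM, the syntrophin SNTB1 averaged 1624 against 366 at 1 dpn (2.15 ± 0.29) and desmin (DES) 26547 against 19557 (0.44 ± 0.14, not holding). LMNA, the nuclear lamina protein, fell to 1201 at 188 dpn, against 4743 at 1 dpn (-1.98 ± 0.17), and vimentin (VIM), the filament of immature and connective tissue cells, to 12459 against 22482 (-0.85 ± 0.19). Of 8 genes of calcium release and membrane excitation 3 rose and 2 fell (2 and 0 holding, median 0.45), and 5 rose after median centring. RYR1, the calcium release channel, measured 20043 to 23922 (median 21585) at 188 dpn and 4669 to 7647 (median 5736) at 1 dpn (1.91 ± 0.17, adjusted p = 1.32e-08), with no overlap. CACNA2D1, a subunit of the calcium channel that triggers RYR1, averaged 1179 against 336 (1.81 ± 0.32), and sarcolipin (SLN), a regulator of the calcium pump and the brightest of the group, 57569 against 43303 (0.41 ± 0.14, not holding). FKBP1A, which binds RYR1, and ATP1B1, a subunit of the sodium pump, differed by -1.16 ± 0.27 and -0.89 ± 0.23, and neither fall held. At the neuromuscular junction 2 genes were measured, 0 rose (0 also at an unadjusted p under 0.05 by limma) and 1 fell and held (median -1.39): CHRNA1, a subunit of the acetylcholine receptor, at 76.9 against 329 (-2.10 ± 0.42).

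**Figure D3:**
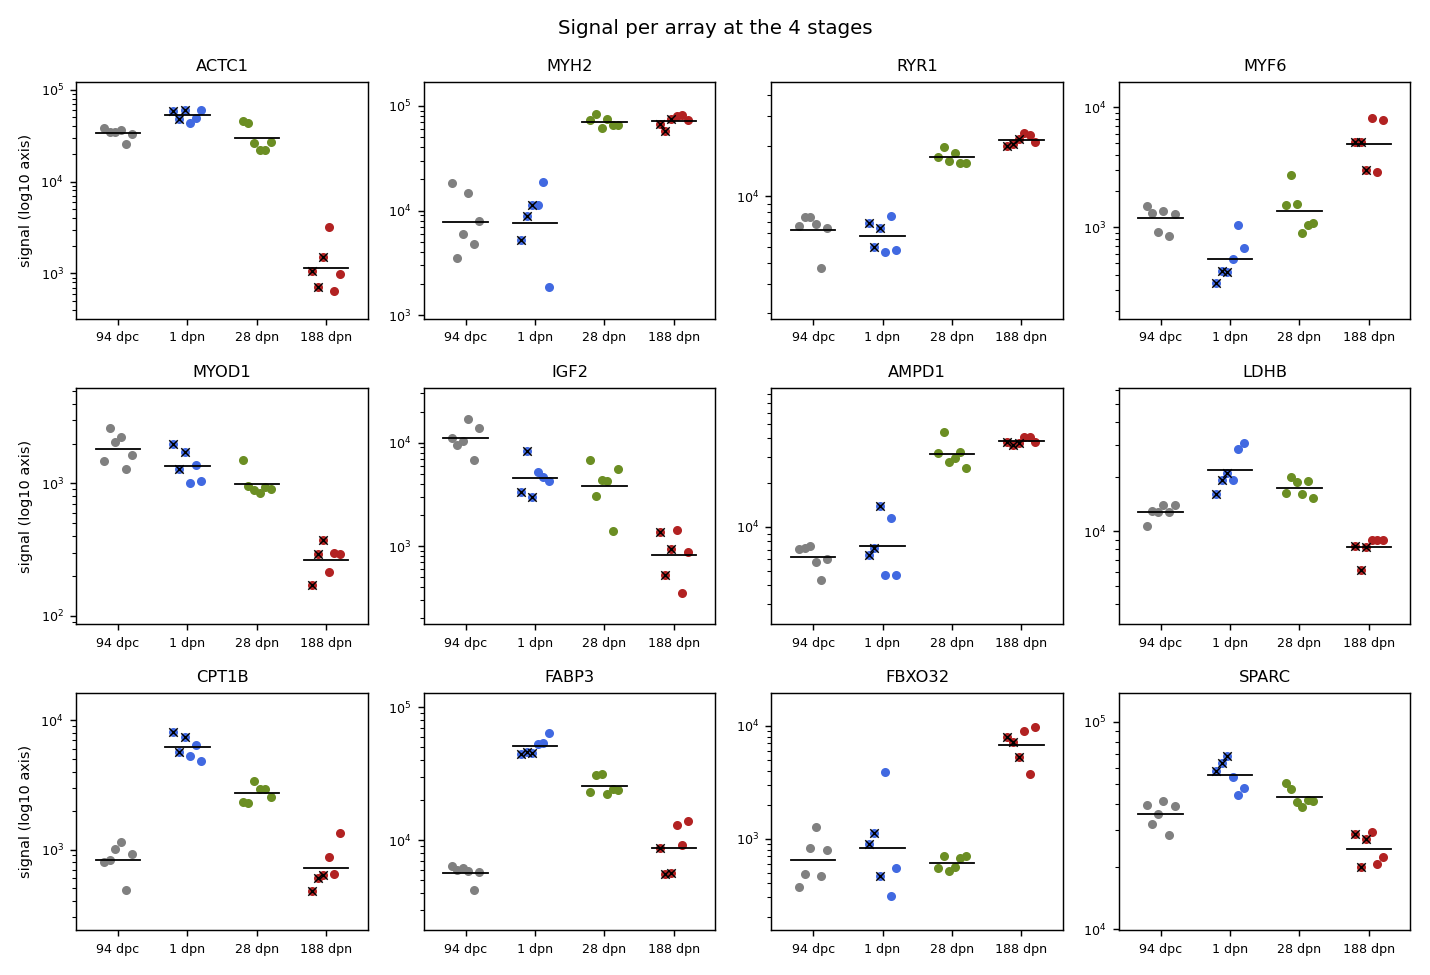
Signal per array (log10 axis, one panel a gene) at 94 dpc, 1 dpn, 28 dpn and 188 dpn for 12 genes named in the text, with the geometric mean of each stage as a bar; crosses mark the doubted arrays at 1 and 188 dpn. MYH2 averaged 69998 at 28 dpn and 71827 at 188 dpn, whereas ACTC1 averaged 29565 at 28 dpn and 1149 at 188 dpn.

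Regulators of muscle formation changed in both directions. Of 14 measured myogenic and satellite cell genes 5 rose and 7 fell (3 and 4 holding, median -0.27). MYF6, the myogenic factor of mature fibres, measured 2872 to 8038 (median 5142) at 188 dpn and 344 to 1050.1 (median 489) at 1 dpn (3.19 ± 0.31, adjusted p = 6.3e-08). MYOD1, the factor that commits cells to muscle, measured 172 to 371 (median 294) at 188 dpn and 1004 to 1985 (median 1336) at 1 dpn (-2.36 ± 0.22, adjusted p = 3.85e-08). The stages of both genes were apart in all 12 arrays, in opposite directions. Myostatin (MSTN), which limits muscle mass, was under background at 1 dpn and at least 3.11-fold higher at 188 dpn (adjusted p = 2.37e-05). The transcription factor MEF2A averaged 2556 against 904 (1.50 ± 0.21) and SIX4 771 against 397 (0.96 ± 0.29, not holding). HES1, a target of Notch and an inhibitor of differentiation, fell to 273 at 188 dpn, against 1532 at 1 dpn (-2.49 ± 0.29), and ID3, another inhibitor and the brightest of the group, to 1477 against 4474 (-1.60 ± 0.20). MYF5, a factor of early precursors, was at least 2.37-fold lower, which did not hold.

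Growth genes that are imprinted, expressed from the copy of one parent and best known for growth before birth, were mostly lower. Of 14 measured, 10 fell and 1 rose (8 and 1 holding), with a median of -1.42. IGF2, the fetal insulin-like growth factor and the brightest, measured 350.4 to 1439 (median 904) at 188 dpn and 3013 to 8387 (median 4490.1) at 1 dpn (-2.48 ± 0.37, adjusted p = 1.74e-05). PLAGL1, a zinc finger factor, measured 95.3 to 211 (median 162) at 188 dpn and 529 to 1807 (median 1201) at 1 dpn (-2.89 ± 0.27, adjusted p = 2.66e-08). For both genes the finished animals lay below all newborns. PEG10, a gene derived from a retrotransposon, fell to 142, against 1696 at 1 dpn (-3.58 ± 0.57, adjusted p = 3.61e-05, and 0.0542 when its probe sets were averaged) although 1 or more arrays overlapped, and the probe set of GNAS was at least 2.14-fold lower. GRB10, an adaptor that dampens insulin signalling, was the gene that rose (6831 against 3552, 0.94 ± 0.29, with an adjusted p of 0.0679 when only the 12 arrays of the 2 stages were fitted). IGF2 averaged 3796 at 28 dpn, nearer to newborn than to finished muscle.

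In the growth hormone and IGF axis 2 of 14 genes rose and 4 fell (1 and 1 holding). The median was -0.08 as deposited and 0.10 and 0.13 after quantile normalization and median centring, and 3 rose and 2 fell after that centring. In the deposited signals it was -0.63 without the low-ratio arrays, -0.23 without the ALB-high arrays and -0.54 without both. The median thus depended on the scaling and on the arrays fitted, and the group has no settled direction. Beside GHR, which held, the transcription factor STAT5B that acts below it averaged 2281 against 1499 (0.61 ± 0.20, not holding). IGFBP6, a binding protein and the brightest, fell to 1733, against 4369 at 1 dpn (-1.33 ± 0.28), which held. The fall of the kinase AKT1 (-0.88 ± 0.16) did not hold.

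The fast fuels of muscle, creatine phosphate, glycolysis and glycogen, had more rises than the background. Creatine and adenylate genes showed 4 rises and 0 falls in 9 measured, all rises holding (median 0.65, and 0.21 without both doubted sets). AMPD1, the muscle AMP deaminase, measured 36271 to 40994 (median 37588) at 188 dpn and 4707 to 13905 (median 6791) at 1 dpn (2.38 ± 0.23, adjusted p = 4.91e-08), and ADSSL1, the next enzyme of the purine nucleotide cycle, averaged 28252 against 5259 (2.43 ± 0.24). SLC6A8, the creatine transporter, averaged 2162 against 1179 (0.88 ± 0.15), while CKM, the brightest, differed by 0.02 ± 0.14 (adjusted p = 0.918). By limma 0 genes of this group fell at the adjusted threshold and 1 at an unadjusted p under 0.05, and the lowest difference was -0.73.

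Of 19 measured glycolysis genes 10 rose and 3 fell (8 and 3 holding, median 0.68). The median was 0.17 without the low-ratio arrays and 0.54 without both doubted sets. GPD1, which moves reducing power from glycolysis toward glycerol phosphate, measured 20287 to 32442 (median 27597) at 188 dpn and 1739 to 5941 (median 3647) at 1 dpn (2.95 ± 0.27, adjusted p = 1.86e-08). GPI, the second enzyme of the pathway, averaged 38917 against 10491 (1.89 ± 0.19) and PFKM, muscle phosphofructokinase, 49735 against 16719 (1.57 ± 0.24). The genes that fell were isoforms used widely outside adult fast muscle: LDHB, the heart form of lactate dehydrogenase, measured 6178 to 9024 (median 8619) at 188 dpn and 16055 to 30761 (median 20115) at 1 dpn (-1.41 ± 0.16, adjusted p = 3.09e-07). ENO1, the general enolase, fell to 2679.7, against 7733 at 1 dpn (-1.53 ± 0.19), and the hexokinase HK1 to 273 against 658 (-1.27 ± 0.22). GAPDH, the brightest, differed by -0.20 ± 0.14 (adjusted p = 0.315), while its other called probe sets went both ways (19653 against 3959, 71.3 against 151 and 1417 against 690.1).

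Glycogen turnover had 7 rises and 3 falls in 14 genes (7 and 1 holding, median 0.91). PHKB, a subunit of phosphorylase kinase, measured 12928 to 21448 (median 14294) at 188 dpn and 1196 to 2949 (median 2174) at 1 dpn (2.96 ± 0.19, adjusted p = 2.18e-10). Subunits of the energy sensor AMP kinase rose, PRKAB2 at 1521 against 277 (2.46 ± 0.22) and PRKAA2 at 7455 against 1828 (2.03 ± 0.28), while its gamma subunit PRKAG1 fell to 1153, against 2067 at 1 dpn (-0.84 ± 0.17, but adjusted p = 0.337 when its probe sets were averaged). PGM1, phosphoglucomutase, averaged 54858 against 15375 (1.84 ± 0.25). PPP1R3B, which targets a phosphatase to glycogen, fell without holding (-1.37 ± 0.37). PYGM, the muscle phosphorylase and the brightest, differed by 0.37 ± 0.16 (adjusted p = 0.0826) on its brightest probe set, whereas its 3 other probe sets were called higher, at 56495 against 20728, 20081 against 1479 and 11624 against 681.

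Beta oxidation, the breakdown of fatty acids in mitochondria, had more falls than the background. Of 26 measured beta oxidation genes 16 fell and 3 rose, 11 falls and 0 rises holding, with a median of -0.88. CPT1B, the muscle enzyme that admits fatty acids to mitochondria, measured 478 to 1342 (median 638) at 188 dpn and 4876 to 8066 (median 6102) at 1 dpn (-3.11 ± 0.23, adjusted p = 1.17e-09). FABP3, the fatty acid carrier of muscle and the brightest, measured 5572 to 13995 (median 8971) at 188 dpn and 44513 to 63362 (median 49505) at 1 dpn (-2.53 ± 0.21, adjusted p = 4.72e-09). ACADVL, the very long chain acyl-CoA dehydrogenase, measured 2604 to 4602 (median 3517) at 188 dpn and 13726 to 20864 (median 18726) at 1 dpn (-2.37 ± 0.26, adjusted p = 3.66e-07). In each of these 3 genes all finished animals lay below all newborns. Means of 835, 5692 and 1999 at 94 dpc and 2719.7, 25630.3 and 5612 at 28 dpn, in the same order of genes, put the newborn level above those of all other stages. The medium chain dehydrogenase ACADM went against them (6240.1 against 3163, 0.98 ± 0.25), as did UCP3, an uncoupling protein (1054 against 392, 1.43 ± 0.35), but neither rise held.

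The PPAR fuel switch genes, which fasting and fat feeding raise in muscle, had 5 rises and 5 falls in 16 (2 and 5 holding), with a median of -0.07 as deposited and 0.09 and 0.14 under the other 2 scalings. Their falls included UCP2, CPT1B and ACADVL, which other groups share, and ANGPTL4, an inhibitor of lipoprotein lipase, at 339 against 1789.6 (-2.40 ± 0.26). Their rises included PDK3, a kinase that switches off pyruvate dehydrogenase, at 407 against 89.5 (2.19 ± 0.39, but adjusted p = 0.119 when its probe sets were averaged), and its relative PDK4 at 13586 against 6075 (1.16 ± 0.44), of which PDK4 did not hold. TXNIP, a regulator of glucose uptake and the brightest, differed by -0.44 ± 0.18 (adjusted p = 0.0617).

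The respiratory chain also had more falls than the background. In complexes I, II, III and V 28 of 49 genes fell and 2 rose (15 and 1 holding, median -0.63), and 18 fell after median centring. NDUFC2 of complex I measured 5421 to 8003 (median 6769) at 188 dpn and 10887 to 28713 (median 21544) at 1 dpn (-1.55 ± 0.19, adjusted p = 9.53e-07). NDUFV1 averaged 3239 against 8152 (-1.33 ± 0.20), NDUFA11 8153 against 20244 (-1.31 ± 0.19) and the ATP synthase subunit ATP5G1 19843 against 46367 (-1.22 ± 0.15), all holding. The exceptions that rose were ATP5J of the ATP synthase (0.71 ± 0.15, holding, but adjusted p = 0.136 when its probe sets were averaged) and SDHC of complex II (0.47 ± 0.18, not holding). ATP5E, the brightest, fell by less (-0.46 ± 0.13) and did not hold.

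Cytochrome c and cytochrome oxidase had 7 falls and 0 rises (0 also at an unadjusted p under 0.05 by limma) in 9 genes, 3 falls holding (median -0.75). COX7A2, the oxidase subunit of liver and immature muscle, measured 4041 to 5296 (median 4653) at 188 dpn and 14907 to 30272 (median 25002) at 1 dpn (-2.36 ± 0.15, adjusted p = 2.31e-10), with no overlap. COX6A1, likewise the form of tissues other than adult muscle, averaged 2139.7 against 6794 (-1.67 ± 0.23). CYCS, cytochrome c, averaged 8222 against 16340.4 (-0.99 ± 0.24, not holding), and COX5B, the brightest, 25390.1 against 44771 (-0.82 ± 0.14).

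Citric acid cycle and pyruvate dehydrogenase genes showed 7 falls and 1 rise in 21 (4 and 1 holding), with a median of -0.16. After median centring 4 fell, 3 rose and the median was 0.05. IDH3B, a subunit of isocitrate dehydrogenase, measured 829.7 to 1343 (median 1017) at 188 dpn and 3525 to 4887 (median 3901) at 1 dpn (-1.94 ± 0.15, adjusted p = 2.28e-09). MPC2, a pyruvate carrier, averaged 10975 against 30716 (-1.48 ± 0.21), SDHA 11496 against 23416 (-1.03 ± 0.16, but adjusted p = 0.398 when its probe sets were averaged) and MDH2 12692 against 24671 (-0.96 ± 0.16). SUCLA2, a subunit of succinyl-CoA ligase, was the rise (5435 against 2265, 1.26 ± 0.27), and IDH2, the brightest, fell without holding (-0.48 ± 0.14).

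Genes that break down branched chain amino acids and ketone bodies, a task of mitochondria too, had more rises than falls. Of 16 genes 7 rose and 1 fell (5 and 0 holding, median 0.40). BCKDHB, a subunit of the dehydrogenase that commits branched chain amino acids to breakdown, measured 1777 to 3022 (median 2756) at 188 dpn and 221 to 807 (median 393) at 1 dpn (2.68 ± 0.26, adjusted p = 5.01e-08). The mitochondrial aminotransferase BCAT2 averaged 783 against 146 (2.43 ± 0.40), whereas its cytosolic relative BCAT1 was at least 2.82-fold lower at 188 dpn without holding. MUT, an enzyme of propionate use, averaged 386 against 116 (1.73 ± 0.30), and OXCT1, which starts ketone body use, 649.5 against 212 (1.61 ± 0.26). BCKDK, the kinase that restrains the dehydrogenase and the brightest, differed by 0.36 ± 0.19 (adjusted p = 0.163).

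Mitochondrial ribosomal proteins had 17 falls and 6 rises in 55 (10 and 0 holding), with a median of -0.18 as deposited. After median centring 10 fell, 11 rose and the median was 0.03. The deepest falls were MRPS12 (585 against 2045, -1.81 ± 0.20), MRPL2 (1602 against 5377, -1.75 ± 0.20) and MRPL32 (495 against 1563, -1.66 ± 0.17), all holding, and the largest rise was MRPL18 (2394 against 952, 1.33 ± 0.35), which did not hold. Genes of mitochondrial biogenesis and dynamics had 2 rises and 2 falls in 14, all holding (median 0.07; 4 rises after median centring): FIS1 (6044 against 2334, 1.37 ± 0.20) and PINK1 (8092 against 3607, 1.17 ± 0.22), which act in fission and in clearing damaged mitochondria, rose, and the import protein TIMM44 (242 against 765, -1.66 ± 0.23) and prohibitin PHB2 (4021 against 8224, -1.03 ± 0.17) fell.

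**Figure D4:**
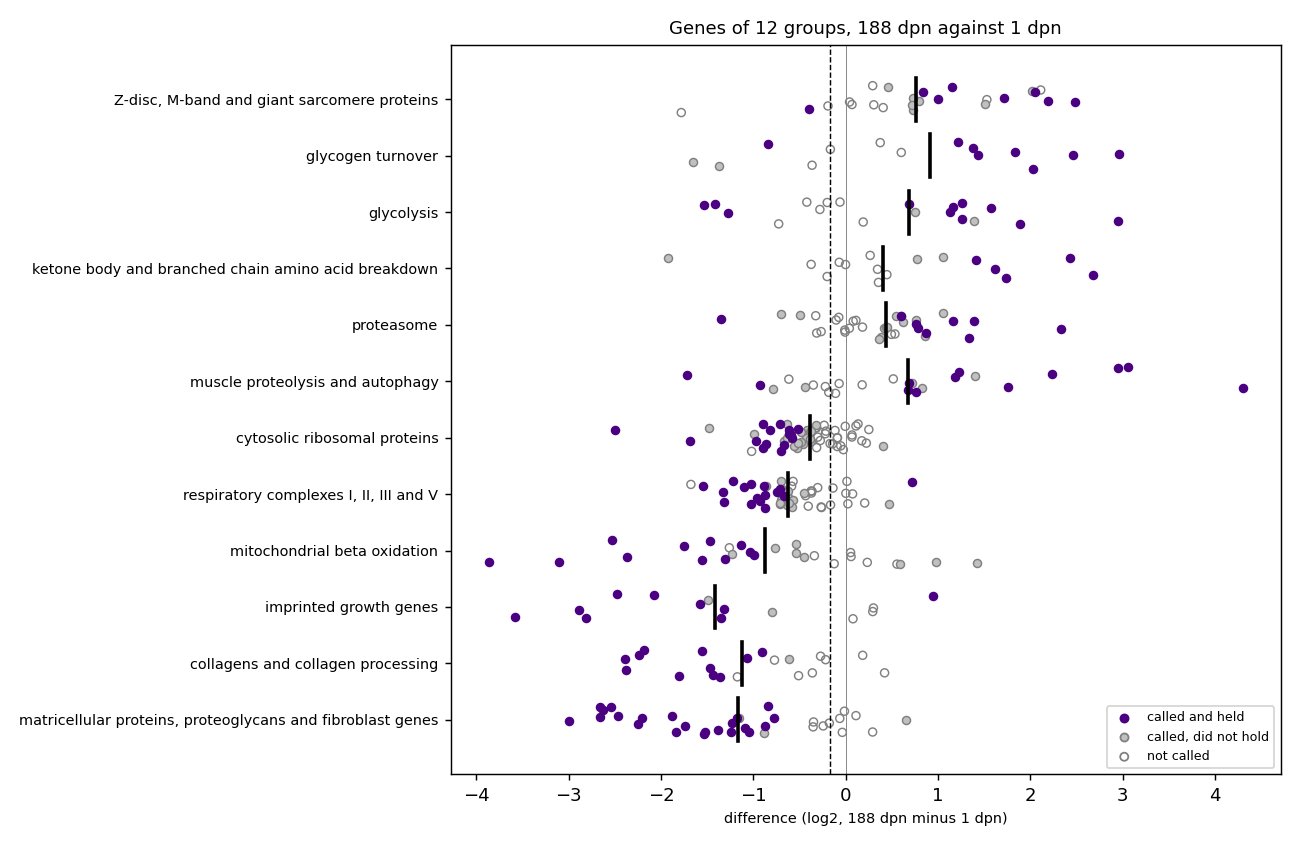
Difference of each measured gene (points, log2, 188 dpn minus 1 dpn) in 12 gene groups, with the group's median as a bar and the median of all 6765 genes (-0.17) as a dashed line; filled points held without the doubted arrays, grey points were called with all arrays alone and open points were not called. Glycolysis and glycogen lie to the right of the dashed line and beta oxidation, respiratory chain, collagen and matricellular genes to its left.

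Genes for making protein had more falls than the background in the cytosolic ribosome. Of 59 cytosolic ribosomal proteins 33 fell and 1 rose (15 and 0 holding, median -0.39), and 26 and 19 fell after quantile normalization and median centring. RPL3 measured 3485 to 6029.5 (median 4894) at 188 dpn and 23567 to 28618 (median 26722) at 1 dpn (-2.50 ± 0.14, adjusted p = 2.34e-11). RPLP2, of the stalk of the large subunit, measured 8536 to 12863 (median 10584) at 188 dpn and 21557 to 43028 (median 35878) at 1 dpn (-1.68 ± 0.18, adjusted p = 1.66e-07). Both lay outside the newborn range in every finished animal, and both differed by more than the median of the group. RPS20, the brightest, differed by -0.38 ± 0.13 and RPS3A rose (0.41 ± 0.13), neither holding.

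Translation factors had 10 rises and 8 falls in 35 (8 and 3 holding, median 0.25), and 16 rises and 3 falls after median centring. Paralogs of the helicase that unwinds mRNA went opposite ways: EIF4A2 measured 32169 to 36402 (median 33826) at 188 dpn and 5015 to 13122 (median 9839) at 1 dpn (1.98 ± 0.20, adjusted p = 9.63e-08), and EIF4A1 measured 1514 to 2089.99 (median 1893) at 188 dpn and 3537 to 5328 (median 4177) at 1 dpn (-1.22 ± 0.15, adjusted p = 1.97e-06). Near-identical copies can share probes, so both values carry that uncertainty. EIF5B (509 against 129, 1.98 ± 0.41, not holding) and EIF1AX (2429 against 618, 1.97 ± 0.29) rose, and PABPC1, the poly(A) binding protein (4079.9 against 9349.6, -1.20 ± 0.15), and the probe set of EEF1A1 (868 against 1753, -1.01 ± 0.17) fell. EIF1, the brightest, differed by 0.34 ± 0.14 (adjusted p = 0.0665) on its brightest probe set. Another EIF1 probe set was called higher, at 36543 against 20156 (0.86 ± 0.15), and held.

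Ribosome biogenesis had 8 falls and 4 rises in 26 genes (6 and 1 holding, median -0.27), and 5 falls and 5 rises with a median of -0.06 after median centring. Falls that held included DKC1, which modifies ribosomal RNA (332 against 859, -1.37 ± 0.21), and NOP56 (923 against 1825, -0.98 ± 0.19), and the rise that held was POLR1D, a polymerase subunit (5701 against 1498, 1.93 ± 0.29). Pre-mRNA splicing factors had 16 falls and 5 rises in 42 (10 and 0 holding, median -0.37). RBFOX2, a regulator of muscle splicing, measured 769 to 1143 (median 911) at 188 dpn and 4213 to 6284 (median 4897) at 1 dpn (-2.46 ± 0.15, adjusted p = 9.2e-11). PTBP1, which represses muscle exons in precursor cells, fell to 729, against 2164 at 1 dpn (-1.57 ± 0.17), SRSF3 to 1444 against 4509 (-1.64 ± 0.15) and SNRPD1 to 1071 against 4286 (-2.0 ± 0.19). The largest rise was SF3B1 (1.09 ± 0.22, not holding).

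In the endoplasmic reticulum and amino acid response group 10 of 18 genes fell and 4 rose (7 and 3 holding, median -0.77), and its brightest gene was among the rises. ATF4, the transcription factor of the amino acid response, measured 51299.5 to 59904 (median 58679.99) at 188 dpn and 7068 to 12088 (median 9764) at 1 dpn (2.55 ± 0.15, adjusted p = 9.05e-11), every finished array being above every newborn one. Its targets of serine synthesis lay lower at 188 dpn, PHGDH at 78.3 against 656 (-3.07 ± 0.66, adjusted p = 0.000849) and PSAT1 at 784 against 2983 (-1.93 ± 0.62, adjusted p = 0.0183), without holding. The disulfide isomerase PDIA4 fell to 857, against 2930.3 at 1 dpn (-1.77 ± 0.19), which held. SDF2L1, a chaperone partner, was at least 3.37-fold lower without holding. Rises beside ATF4 were ATF3 (2.10 ± 0.59, not holding), CEBPB (11415 against 4532, 1.33 ± 0.31) and the co-chaperone DNAJB9 (1513 against 713, 1.09 ± 0.18).

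Aminoacyl-tRNA synthetases, which load amino acids for translation, had 9 falls and 3 rises in 15 (7 and 1 holding, median -0.77). VARS averaged 481 against 1304 (-1.44 ± 0.18), MARS 974 against 2754 (-1.50 ± 0.24) and WARS 303 against 908 (-1.58 ± 0.28), which held, and AARS 2155 against 4701 (-1.13 ± 0.24), which did not. The brightest DARS probe set rose to 548 at 188 dpn, against 96.1 at 1 dpn (2.51 ± 0.50, adjusted p = 0.000393), while another was called lower at 143 against 552, so that the gene has no settled direction. KARS, the brightest, differed by 0.50 ± 0.15 without holding.

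Genes for breaking down protein had more rises than the background. Of 35 proteasome genes 19 rose and 3 fell (8 and 1 holding, median 0.44), with 14 and 5 under quantile normalization and 22 and 1 after median centring. PSME4, a proteasome activator, measured 1522 to 3057 (median 2381) at 188 dpn and 324 to 626 (median 457) at 1 dpn (2.33 ± 0.20, adjusted p = 7.07e-09). PSMD6 averaged 6121 against 2328 (1.39 ± 0.15), PSMA3 12584 against 4967 (1.34 ± 0.18) and PSMD11 15969 against 7139 (1.16 ± 0.17), all holding. PSMD10 was the fall that held (366 against 932, -1.35 ± 0.14), and PSMA7, the brightest, fell without holding (-0.70 ± 0.18).

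In muscle proteolysis and autophagy 13 of 25 genes rose and 4 fell (10 and 2 holding, median 0.68). FBXO32 (atrogin-1), a ubiquitin ligase of muscle wasting, measured 3733 to 9739.6 (median 7612) at 188 dpn and 309.6 to 3927 (median 719) at 1 dpn (3.06 ± 0.44, adjusted p = 8.74e-06). The stages overlapped through newborn animal 4, which lay above the lowest finished animal, and the change held. FBXO32 averaged 611 at 28 dpn. CAST, the inhibitor of calpains, rose to 981, against 208 at 1 dpn (2.24 ± 0.26), beside CAPN3. ATG4B (586 against 1928, -1.72 ± 0.15) and ATG7 (142 against 269, -0.92 ± 0.17), both of autophagosome formation, fell and held, and the muscle ligase TRIM55 fell without holding (-0.79 ± 0.21). GABARAP, the brightest, differed by 0.18 ± 0.14 (adjusted p = 0.374) on its brightest probe set. Another GABARAP probe set was called higher without holding, at 13133 against 7318 (0.84 ± 0.27).

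Heat shock proteins had 9 rises and 5 falls in 23 (6 and 4 holding, median 0.34). HSPH1, a partner of HSP70, rose to 1601 at 188 dpn, against 327 at 1 dpn (2.29 ± 0.31), and the small heat shock protein HSPB8 to 14616 against 5248 (1.48 ± 0.22). Other small heat shock proteins fell, HSPB7 at 2778 against 7787 (-1.49 ± 0.21) and HSPB6 at 3195 against 8382 (-1.39 ± 0.24; a dimmer probe set was called higher), as did the mitochondrial chaperones HSPD1 at 4522 against 11053 (-1.29 ± 0.19) and HSPA9 (-1.30 ± 0.22, not holding; 1 of its dimmer probe sets was called higher). Antioxidant enzymes had 6 rises and 8 falls in 30 (5 and 7 holding, median 0.19), and 10 rises after median centring. SELENOW, a selenoprotein of muscle, measured 6147 to 9464 (median 8269) at 188 dpn and 523 to 3261 (median 1281) at 1 dpn (2.66 ± 0.29, adjusted p = 2.73e-07). GPX3 (965 against 183, 2.40 ± 0.43) and the mitochondrial peroxiredoxin PRDX3 (18769 against 7691, 1.29 ± 0.20) also rose, while the cytosolic PRDX1 (3440.2 against 9615, -1.48 ± 0.17), GLRX (934 against 3711, -1.99 ± 0.28) and the thioredoxin reductase TXNRD1 (458 against 1335, -1.54 ± 0.21) fell. All of these antioxidant calls held.

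In the extracellular matrix falls far outnumbered rises. Of 20 collagen and collagen processing genes 12 fell, 11 of them holding, and 0 rose (0 also at an unadjusted p under 0.05 by limma), with a median of -1.12 and a highest difference of 0.42. Of 34 matricellular, proteoglycan and fibroblast genes 24 fell and 1 rose (22 and 0 holding, median -1.17). SPARC, a matrix protein that binds collagen and the brightest, measured 19847 to 29513 (median 24780.3) at 188 dpn and 44252 to 68342 (median 55968) at 1 dpn (-1.18 ± 0.15, adjusted p = 1.66e-06). COL5A1, a collagen that starts fibrils, measured 584 to 1077 (median 877) at 188 dpn and 2184 to 6444 (median 4391) at 1 dpn (-2.24 ± 0.22, adjusted p = 6.84e-08). In neither did the stages overlap. In whole tissue, fewer cells of a type and less RNA per cell cannot be told apart: decorin (DCN), the bright fibroblast marker, measured 9091 to 13618 (median 10751) at 188 dpn and 11488 to 36998 (median 18046) at 1 dpn (-0.77 ± 0.21, adjusted p = 0.00669, and 0.698 when its probe sets were averaged).

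Among enzymes that process and cross-link collagen, LOXL1 averaged 224 against 1169 (-2.39 ± 0.21), LOX 104 against 468 (-2.18 ± 0.42) and the procollagen protease BMP1 156 against 815 (-2.38 ± 0.18), 188 dpn against 1 dpn, and COL6A3, the brightest, 7543 against 15796 (-1.07 ± 0.23). Among matricellular genes THBS1 fell to 337, against 2685 at 1 dpn (-3.0 ± 0.62), THBS2 to 594 against 3662 (-2.62 ± 0.51), the basement membrane protein NID2 to 353 against 2239 (-2.66 ± 0.24), and asporin (ASPN) to 259 against 1629 (-2.65 ± 0.35). All of these held, and SPARCL1, the rise, did not (0.65 ± 0.24). ASPN averaged 1624 and SPARC 43220.1 at 28 dpn.

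Vessel genes had more falls than rises, and the brightest rose. Of 22 endothelial and angiogenic genes 9 fell and 2 rose (7 and 1 holding, median -0.52). VEGFA, the angiogenic factor that muscle fibres secrete and the brightest, measured 9473 to 10322 (median 9738) at 188 dpn and 1706 to 3301 (median 2529) at 1 dpn (1.98 ± 0.15, adjusted p = 1.7e-09, and 0.894 when its probe sets were averaged), although a second probe set was called lower at 947 against 1992. Of the defining markers of endothelium, PECAM1 measured 866 to 1373 (median 1024) at 188 dpn and 1766 to 2861 (median 2101) at 1 dpn (-1.01 ± 0.18, adjusted p = 0.000119) and CDH5 averaged 705 against 1462 (-1.05 ± 0.18), while TIE1 was near the background level in both stages. ENG, a co-receptor of endothelium, fell to 101, against 325 (-1.69 ± 0.23), NOS3 to 92.2 against 219 (-1.25 ± 0.23) and ERG to 103 against 242 (-1.23 ± 0.24). When all probe sets of a gene were averaged in place of taking the brightest, PECAM1 and CDH5 no longer passed (adjusted p = 0.0872 and 0.172). Smooth muscle and pericyte genes had 4 falls and 1 rise in 11 (3 and 0 holding, median -0.66): PDGFRB, the pericyte receptor, measured 1216 to 1825 (median 1484) at 188 dpn and 4510.4 to 9755 (median 7114) at 1 dpn (-2.20 ± 0.19, adjusted p = 9.82e-09), SMTN averaged 1135 against 2197 (-0.95 ± 0.18, but adjusted p = 0.161 when its probe sets were averaged), ACTA2 is given above, TAGLN fell without holding (-0.80 ± 0.31), and the rise was DES.

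Of 33 measured cell division genes 13 fell and 5 rose (6 and 3 holding, median -0.50), and 10 had both stage means under the background level. CCND2, a cyclin that drives entry into the cycle, measured 103 to 387 (median 250.1) at 188 dpn and 1032 to 2183 (median 1451) at 1 dpn (-2.69 ± 0.26, adjusted p = 6.01e-08). TUBA1B, a tubulin used in spindles and in growing cells and the brightest, averaged 4069.9 against 18552 (-2.19 ± 0.18). CENPF, of the centromere, was at least 1.08-fold lower without holding, and MAD2L1 (424 against 142, 1.58 ± 0.22) and RFC3 (365 against 197, 0.89 ± 0.18) rose and held. Chromatin regulators had 4 rises and 5 falls in 17 (3 and 5 holding), with a median of -0.06 as deposited and 0.04 and 0.15 under the other scalings, and 7 rose after median centring. DNMT1, which copies DNA methylation in dividing cells, measured 81.5 to 171 (median 144) at 188 dpn and 734 to 1371 (median 879) at 1 dpn (-2.78 ± 0.24, adjusted p = 1.14e-08). The deacetylase HDAC1 (314 against 748, -1.25 ± 0.22), the methyltransferase DNMT3A (1022 against 2039, -1.0 ± 0.21) and HMGN1 (1536 against 2989, -0.96 ± 0.22) fell too, and HMGN3 (8658 against 3759, 1.20 ± 0.22) and the remodeller SMARCA2 (3089 against 1406, 1.14 ± 0.21) rose, all holding.

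Hormone-responsive and early response genes had more rises than falls. Of 18 genes of the glucocorticoid receptor and its targets 9 rose and 2 fell (4 and 0 holding, median 0.72). The receptor NR3C1 averaged 459 against 82.7 (2.47 ± 0.54, adjusted p = 0.001) with no overlap but did not hold, and another probe set was called lower at 23.7 against 114. KLF15, a target that acts on amino acid breakdown, measured 929 to 1353 (median 1028) at 188 dpn and 207 to 523 (median 321) at 1 dpn (1.75 ± 0.23, adjusted p = 2.94e-06). HSD11B2, which inactivates cortisol, fell without holding (-0.96 ± 0.27), and GLUL, the brightest, differed by 0.51 ± 0.23 (adjusted p = 0.0886). Another GLUL probe set was called higher without holding, at 3711 against 1565 (1.25 ± 0.42). Immediate early genes had 8 rises and 3 falls in 19 (3 and 2 holding, median 0.74). Beside FOS, JUN averaged 10028 against 2658 (1.92 ± 0.34) and BTG2 2631 against 656 (2.0 ± 0.48), while IER3 fell to 118, against 711 at 1 dpn (-2.59 ± 0.29).

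Among 8 clock genes 3 rose and 0 fell, 0 also at an unadjusted p under 0.05 by limma (2 rises holding), and the median was -0.04 as deposited and 0.04 and 0.16 under the other scalings. CRY2, a repressor of the clock, averaged 1873 against 612 (1.61 ± 0.15, adjusted p = 1.92e-08), RORA was at least 2.37-fold higher, BHLHE40 at least 2.18-fold higher without holding, and PER1, the brightest, differed by -0.28 ± 0.31 (adjusted p = 0.541). Solute carriers for amino acids, glucose and lactate had 12 falls and 3 rises in 21 (7 and 2 holding, median -0.72). SLC7A1, a carrier of arginine and lysine, measured 179 to 334 (median 282) at 188 dpn and 1116 to 3994 (median 1494) at 1 dpn (-2.71 ± 0.29, adjusted p = 2.17e-07). SLC25A6, a mitochondrial ADP/ATP carrier, averaged 4580.4 against 21799.6 (-2.25 ± 0.18), and its muscle relative SLC25A4, the brightest, 30345 against 48294 (-0.67 ± 0.14, not holding). SLC2A12, a glucose transporter, rose to 386, against 130.2 at 1 dpn (1.57 ± 0.30).

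Markers of other tissues bear on how these differences may be read. The plasma protein genes of liver showed 2 falls and 0 rises (1 at an unadjusted p under 0.05) in 32 by limma (1 fall holding), with a median of 0.90 with all arrays and -2.20 without the 3 ALB-high arrays of 188 dpn. The median signal of the group per array was 31.0 to 7490.5 at 188 dpn and 75.6 to 932 at 1 dpn, so that the stages overlapped and spread widely within 188 dpn. ORM1, an acute phase protein, was the fall that held (443 against 1097, -1.31 ± 0.15), but its adjusted p was 0.426 when its probe sets were averaged, and SAA2 fell without holding (-0.52 ± 0.15). APOA1, the brightest, differed by -0.25 ± 0.48 (adjusted p = 0.73). Liver transcripts in the ALB-high arrays moved with these genes, and their part in other results was not tested beyond the fits without those arrays.

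Adipocyte and fat synthesis genes had 3 rises and 4 falls in 25 (2 and 2 holding), and the median was -0.12 as deposited and 0.01 and 0.09 under the other scalings. ME1, malic enzyme, which supplies reducing power for fat synthesis, measured 1836 to 3268 (median 2267) at 188 dpn and 62.5 to 503 (median 393) at 1 dpn (3.07 ± 0.39, adjusted p = 1.85e-06), with no overlap. FABP4, a carrier of adipocytes and capillaries and the brightest, measured 1998 to 3909.6 (median 2930.3) at 188 dpn and 6018 to 23369 (median 7772) at 1 dpn (-1.72 ± 0.30, adjusted p = 8.22e-05). LPIN1, a phosphatidate phosphatase, rose (2437 against 1352, 0.85 ± 0.20), PLIN2, a coat protein of lipid droplets, fell (230.5 against 758, -1.72 ± 0.28), and FASN, fatty acid synthase, fell without holding (-0.91 ± 0.25). ADIPOQ, the defining adipocyte gene, measured 45.6 to 239 (median 179) at 188 dpn and 12.9 to 299.7 (median 57.1) at 1 dpn, with overlapping stages (adjusted p = 0.121).

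Immune genes changed little in number. MHC and antigen presentation had 3 rises and 3 falls in 22 (0 and 1 holding, median 0.16), 1 and 1 after quantile normalization and 5 and 1 after median centring, with SLA-DRA at 1674 against 672 (1.32 ± 0.46) and CD74 at 314 against 125 (1.33 ± 0.33) among rises that did not hold and the immunoproteasome subunit PSMB10 at 542 against 1397 (-1.37 ± 0.24) as the fall that did. SLA genes are near-identical copies, and their probe sets can share signal. Interferon-induced genes had 3 falls and 0 rises (0 also at an unadjusted p under 0.05 by limma) in 19, 0 falls holding, and a median of -0.16 as deposited, 0.08 and 0.05 under the other scalings. The falls were the signalling factors IRF9 (-1.29 ± 0.33), STAT2 (-1.23 ± 0.38) and IRF1 (-0.95 ± 0.31). Macrophage and complement C1q genes had 2 rises and 1 fall in 17 (1 and 0 holding, median 0.09), and C1QC, the brightest, differed by 0.88 ± 0.54 (adjusted p = 0.228). Of 16 lymphocyte genes 1 rose and 0 fell (1 at an unadjusted p under 0.05 by limma, 0 rises holding, median 0.16), with 12 under background in both stages.

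Of 6 erythroid genes 2 fell and 0 rose (1 at an unadjusted p under 0.05 by limma, 0 falls holding, median -1.03). ALAS2, the enzyme of haem synthesis in red cell precursors, fell to 162 against 519 (-1.68 ± 0.41). The globin gene HBB lay in the other direction without being called. It measured 247 to 352 at 188 dpn and 151 to 297 at 1 dpn (0.58, adjusted p = 0.0813 by limma). In myoglobin and iron handling 3 of 15 rose and 2 fell (1 and 1 holding, median 0.11): NCOA4, which delivers ferritin for breakdown, averaged 3099 against 1296 (1.26 ± 0.17), ferritin light chain FTL 36414 against 17858 (1.03 ± 0.20, not holding) and PPOX, of haem synthesis, 431 against 997 (-1.21 ± 0.20). A dimmer FTL probe set was called lower and held, at 1283 against 3498 (-1.45 ± 0.16), so that FTL has no settled direction. Nerve and Schwann cell genes had 2 rises and 2 falls in 10 (0 and 1 holding), with a median of -0.18 as deposited and 0.02 and 0.03 under the other scalings. MBP, the myelin basic protein and the brightest, measured 162 to 501 (median 318) at 188 dpn and 676 to 1097 (median 973) at 1 dpn (-1.66 ± 0.26, adjusted p = 2.22e-05), whereas 3 dimmer MBP probe sets were called higher, so that the gene has no settled direction. UCHL1 rose (1265 against 280.3, 2.17 ± 0.73) without holding.

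**Figure D5:**
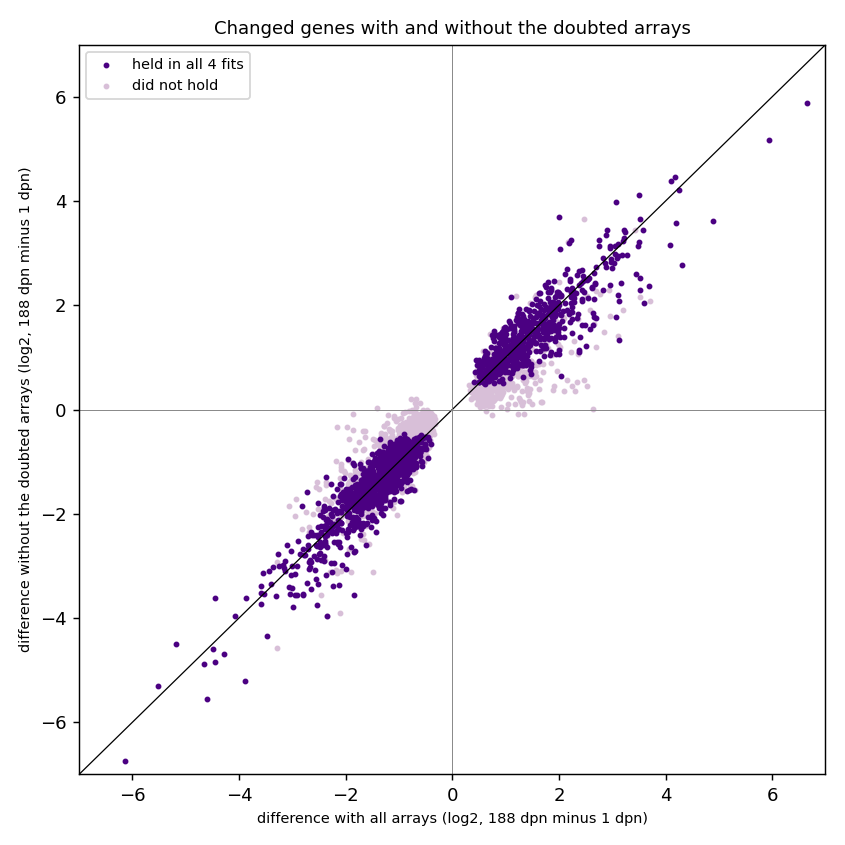
Difference (log2, 188 dpn minus 1 dpn) of each of the 3032 changed genes with all arrays (horizontal axis) and with the doubted arrays of both stages left out (vertical axis), with the line of equality; dark points held in all 4 fits and pale points did not. Of the changed genes 1645 held.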

How the data were processed

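Total RNA was labelled and hybridised to Affymetrix Porcine Genome Arrays, per the labels' protocols, and the authors deposited one intensity per probe set and array on a linear scale, made with GCOS 1.1.1 per the submitters' processing notes. The trimmed mean of every array was 498 to 499, so arrays had been scaled to a common level. Values were used as deposited, on the log2 scale, without further normalization. Probe sets took their symbols from the platform annotation, updated by gene number through the RefSeq gene table: 10069 had 1 symbol, 198 several and 13668 none. The limma 3.58.1 model (R 4.3.3) fitted the means of 4 stages over all 24 arrays with 20 residual degrees of freedom, and its moderated, two-sided test of 188 dpn against 1 dpn was adjusted over 23935 probe sets. The background level of 74.7 is the 95th percentile of 17 control probe sets over all arrays. With 6 arrays a stage, the number of arrays limits the precision.

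The members, the gene groups and their tests were chosen with earlier results of these data known. The 12 genes named first in each direction were those with the largest difference among genes that were called, held without the doubted arrays, did not overlap between stages and had 1 stage above background. In each group, genes were named from the 4 with the largest called difference in each direction and the brightest member. Alternatives were other scalings, added constants, filters, other variance models, leaving out arrays, a stricter threshold and averaging the probe sets of a gene. No sequence is printed.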

Additional observations from a re-analysis of the deposited data

Results flagged for a closer look

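In 28 of 502 groups of 6 arrays checked (5.58%), 1 array lay far from the other 5 by Dixon's test, where chance alone gives about 1 in 20 groups. Animal 2 at 188 dpn, an ALB-high array, accounted for 8 of them, each time as the lowest array: CKM 51112, GAPDH 42251, LDHB 6178, MYL1 57352, MYL2 47340.4, PYGM 39558, TNNT3 48398 and TRIM55 582. These are mostly among the brightest muscle genes, and the part of the liver signal of that array in them was not tested.

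Other arrays of 188 dpn that stood apart were animal 1 for ERG (142), animal 3 for ATF3 (3973), animal 4 for ADIPOQ (45.6), MYBL2 (36.3) and PRKAA2 (3591), animal 5 for HES1 (812), HSPB7 (1567) and JUN (8008), and animal 6 for CMYA5 (15340). At 1 dpn they were animal 1 for FOS (1348) and P3H4 (59.3), animal 4 for COX7A2 (14907), ME1 (62.5) and UCHL1 (19.0), animal 5 for CENPF (10.2) and THBS1 (261), and animal 6 for BCKDK (2867), MBP (676), PEG10 (128) and SAA2 (1351).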

How the results depend on the processing

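Of 236 called genes named above, 168 kept their direction and call in every alternative run for them. The other 68 lost the call or changed sign in at least 1. The 24 genes with the largest changes were among the 168. Their choice had required the call in the fits without the doubted arrays, so that part of this was fixed beforehand. Each gene had 24 alternatives, except TNFAIP6 with 23, since the filter on dim probe sets left it out. The number of changed probe sets was 5495 without both sets of doubted arrays, 3215 of them lower. With 64 added before log2, 3113 changed at least 2-fold, 1452 higher and 1661 lower. Calls that held numbered 825 (458 higher, 367 lower) when the 12 arrays of the 2 stages were fitted alone and 2526 (1109 higher, 1417 lower) at an adjusted p of at most 0.01, and 1615 lower probe sets held after median centring. Without 1 array, 13 of the called genes lost the call, of which ACTN2 alone held otherwise: DES, TPM1 and UCHL1 without 1 array each, the others (PDK4, PSAT1, RPS20, SDHC, SLA-DRA, SLN, SPARCL1, STAT5B, TAGLN) without any of several, at adjusted p up to 0.136. When the probe sets of each gene were averaged 23 lost the call or changed sign, 14 of them among those that held (ATP5J, CDH5, DARS, DCN, MBP, MYH9, ORM1, PDK3, PECAM1, PEG10, PRKAG1, SDHA, SMTN and VEGFA). Of these, MBP was called the opposite way (adjusted p = 0.000122 by limma). The sign reversed there for FTL (-0.21), GAPDH (0.36), MBP (1.62), SAA2 (0.18), SPARCL1 (-0.12) and TPM1 (-0.52), because probe sets of 1 gene disagreed. For the other changes the cause was not tested. Beside the group counts given above, the other scalings moved some counts of 2 or fewer by 1. These were rises of embryonic, imprinted, lymphocyte, erythroid, matricellular, plasma protein, respiratory, endothelial and ribosomal protein genes. They were also falls of sarcomere, plasma protein, glucocorticoid and mitochondrial biogenesis genes. Larger counts moved too. After median centring, for example, rises numbered 12 for heat shock, 10 for branched chain and ketone body and 17 for sarcomere genes. Falls then numbered 13 for beta oxidation, 13 for splicing and 8 for imprinted genes. Medians of the gene groups moved by at least 1 SD of the arrays in 87 of 1200 cases. No paired analysis was possible because the labels give the animals of the 2 stages no shared numbers or mothers. Of all probe sets, 39.2% had a mean under the background level, where differences are not measured well.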
